A study of Mus musculus with 18 samples.

Results

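The CD47 signal and the inhibitory receptors that restrain phagocytosis were followed in mouse bone marrow-derived macrophages (BMDMs) through 10 listed genes: Cd47, Sirpa, Pirb, Lilrb4a, Siglec1, Siglece, Cd300a, Cd300lf, Cd300ld and Pilra. The genes were chosen by symbol and mapped to Ensembl identifiers through the GRCm38 annotation, and 9 of the 10 were counted under their own identifier among the 49315 genes of the series. Lilrb4a was not. Its reads fall in an older gene model that spans both Lilr4b and Lilrb4a and whose exons also overlap the bounds of Gm40645 and Gm49339, on either strand. It is given here as the merged Lilr4b/Lilrb4a model, apart from the 9.

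The study asked how loss of the histone deacetylase HDAC3 in myeloid cells changes efferocytosis, the engulfment of apoptotic cells. RNA of BMDMs was sequenced from 6 groups of 3 libraries, 18 in all. The WT libraries are HDAC3f/f in the study's terms: they carry the floxed Hdac3 alleles without the deletion, on a C57BL/6J background. In the libraries labelled HDAC3 KO (M-HDAC3-/- in the study) Cre under the Lyz2 promoter removes a floxed exon in myeloid cells. Each genotype was left without treatment, given non-apoptotic K562 cells (NAC) or given apoptotic K562 cells (AC). K562 is a human leukemia cell line, made apoptotic by 15 min of UV-B and used 2 h later. Coculture lasted 45 min, and the washed macrophages were held for 5 h. All BMDMs were grown with 20% serum and 20% L929-conditioned medium. Each group comes from 3 animals. Reads were counted on a mouse reference only. The levels of Cd47 and of the other genes below are thus read as those of the macrophages. CD47 and other ligands on the human K562 cells were not measured.

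CD47 is a membrane protein of nearly all cells that binds SIRPα on macrophages and holds back engulfment. SIRPα and its relatives carry cytoplasmic motifs known as ITIMs, which Src-family kinases phosphorylate and which then recruit the phosphatases SHP-1, SHP-2 and SHIP-1. PIR-B and LILRB4 are inhibitory receptors of the immunoglobulin superfamily, and PIR-B binds MHC class I. Siglec-E is an inhibitory receptor for sialic acid, and PILRα is one for sialylated glycoproteins. CD300a and CD300lf are inhibitory receptors that bind the phospholipids exposed on dying cells. The word inhibitory does not describe 2 of the listed genes: Siglec1 (sialoadhesin) binds sialic acid but has no ITIM, and Cd300ld pairs with an activating adaptor.

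On GRCm38 the genes lie as follows, each value spanning the whole gene. Cd47 is at chr16:49855618-49915010 on the plus strand and Sirpa at chr2:129592835-129632228 on the plus strand. Pirb is at chr7:3711409-3720391 and Siglece at chr7:43651070-43660161, both on the minus strand. The CD300 genes share chromosome 11, with Cd300a at chr11:114890041-114904654 (plus), Cd300ld at chr11:114982274-114989922 (minus) and Cd300lf at chr11:115116214-115133992 (minus). Siglec1 is at chr2:131069220-131086765 (minus), Pilra at chr5:137821952-137836281 (minus) and the merged Lilr4b/Lilrb4a model at chr10:51480679-51496613 (plus). Pilra shares 468 exon bases with Zcwpw1 on the opposite strand, and Zcwpw1 had 305 counts in all 18 libraries together. Pirb, Sirpa, Pilra and the CD300 genes have close paralogs, so reads common to paralogs make their counts uncertain.

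The sequence before the start of 7 of the 10 genes was found in the RefSeq promoter table (GRCm38.p6). Shown are the 4 that differ most in kind or whose genes the results below turn on, each written 5′ to 3′ on the gene's strand and ending before the first annotated base of the gene. In Cd47 the capitals mark CG pairs. In the receptors they mark AGGAAGT, a core bound by ETS factors such as PU.1, searched on both strands with no other motif.
Cd47, chr16:49855404-49855617: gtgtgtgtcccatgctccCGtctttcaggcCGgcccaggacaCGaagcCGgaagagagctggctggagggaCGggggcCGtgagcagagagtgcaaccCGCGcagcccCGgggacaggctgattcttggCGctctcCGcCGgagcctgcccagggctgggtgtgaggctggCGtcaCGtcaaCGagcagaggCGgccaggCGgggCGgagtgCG
Pirb, chr7:3720392-3720632: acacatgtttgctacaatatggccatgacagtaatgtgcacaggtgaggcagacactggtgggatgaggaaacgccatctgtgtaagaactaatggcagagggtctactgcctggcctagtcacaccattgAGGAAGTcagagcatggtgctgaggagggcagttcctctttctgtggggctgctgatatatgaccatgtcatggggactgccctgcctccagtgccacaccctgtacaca
Siglece, chr7:43660162-43660411: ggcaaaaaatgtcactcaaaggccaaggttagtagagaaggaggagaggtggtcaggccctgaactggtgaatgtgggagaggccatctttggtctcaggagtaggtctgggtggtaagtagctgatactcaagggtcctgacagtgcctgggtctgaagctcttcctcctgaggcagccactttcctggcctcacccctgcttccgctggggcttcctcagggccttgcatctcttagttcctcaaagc
Cd300ld, chr11:114989923-114990136: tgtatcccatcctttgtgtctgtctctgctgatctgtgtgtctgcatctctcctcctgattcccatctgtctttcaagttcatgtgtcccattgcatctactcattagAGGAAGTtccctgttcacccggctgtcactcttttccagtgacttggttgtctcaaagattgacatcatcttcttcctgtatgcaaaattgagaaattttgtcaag

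The ligand and the receptors differ in these windows. The 250 bases before the RefSeq start of Cd47 hold 30 CG pairs, a number reached by 5.9% of the 32851 promoters of the table, whose median is 6. The 214 bases printed above hold 19 of these pairs, and the rest lie within the annotated gene. The 6 receptor genes with an entry hold 1 to 4. AGGAAGT is in the window of 2 of the 7, Pirb and Cd300ld, and in 7.7% of all promoters of that length. In Cd300ld it begins 142 and 38 bases before the RefSeq start. The match at 38 runs past the printed stretch and is not marked. These matches describe the letters only.

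The libraries held 4704491 to 26421267 counts, with a median of 16477929. All 10 macrophage markers had a median above 1 CPM (counts per 1000000 of the TMM-scaled library total, all 18 libraries scaled together), with a summed level of 5980 to 19800 CPM. The summed neutrophil markers reached 222 to 1270 CPM, with 9 of 10 above 1 CPM, the 6 fibroblast markers 4.31 to 222 CPM and the 6 B cell markers 7.49 to 67.7 CPM. The 7 erythroid markers reached 0.220 to 47.2 CPM, with up to 47.2 CPM in WT and 17.7 CPM in HDAC3 KO libraries with AC and at most 5.17 CPM in the other groups. The 7 dendritic cell markers together stayed at or below 2.86 CPM, and the 6 T and NK cell markers at or below 3.73 CPM. In bulk RNA, fewer cells of a type and less RNA per cell cannot be told apart.

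Hdac3 did not separate the libraries by label. Its level in the untreated WT libraries was 3.38, 44.4 and 32.0 CPM, and in those labelled HDAC3 KO it was 38.7, 11.4 and 74.6 CPM. With NAC it was 48.8, 44.0 and 11.6 CPM in WT and 4.66, 34.1 and 42.6 CPM in HDAC3 KO. With AC it was 7.13, 38.3 and 29.7 CPM in WT and 39.8, 10.1 and 17.9 CPM in HDAC3 KO. The groups overlap in every treatment, and edgeR's adjusted p was 0.645, 0.836 and 0.841. Counts cover the whole gene, so the deleted exon itself was not measured, and directions below are those of the labels.

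A second property of the libraries moves with several of these genes. The GC trend of a library is the median deviation of its genes of highest GC content (above 55.8%) minus that of its genes of lowest GC content (below 44.6%), in log2 units. It was -1.29, -1.35 and -0.60 in untreated WT and 0.48, 1.10 and 1.61 in untreated HDAC3 KO libraries. With NAC it was 0.98, -0.32 and 0.73 in WT and -0.93, -0.44 and -0.60 in HDAC3 KO. Hence the trend separates the genotypes completely in both of these treatments, in opposite directions. With AC the values were -0.82, 0.86 and -0.003 in WT and 0.17, -0.61 and 1.13 in HDAC3 KO, and they overlap.

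Receptor levels ranged widely. Per kilobase of exon, the only scale on which different genes are compared here, Sirpa had the highest median over the 18 libraries at 161 CPM per kb (range 105 to 503), above 97.3% of all expressed genes. Cd300a followed at 110 (59.0 to 171), then the merged Lilr4b/Lilrb4a model at 71.4 (19.4 to 148). Sirpa exceeded Cd300a in 17 of 18 libraries, and Cd300a exceeded the merged model in 16, so the order of these 3 was stable across samples.

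In the middle stood Pirb at 33.9 CPM per kb (16.9 to 66.1), Cd300ld at 32.2 (11.2 to 58.7), Cd47 at 22.4 (11.0 to 40.7) and Siglec1 at 20.7 (6.60 to 89.6). Pirb was above Cd300ld in 11 of 18 libraries and Cd47 above Siglec1 in 10, so these neighbours were not separated beyond their spread. Pilra at 6.28 (0.864 to 14.9), Cd300lf at 6.06 (4.31 to 8.86) and Siglece at 5.24 (1.89 to 21.1) were lowest, in an order that changed from library to library. The receptors that were lowest still had a median above that of at least 66.5% of expressed genes.

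**Figure D1:**
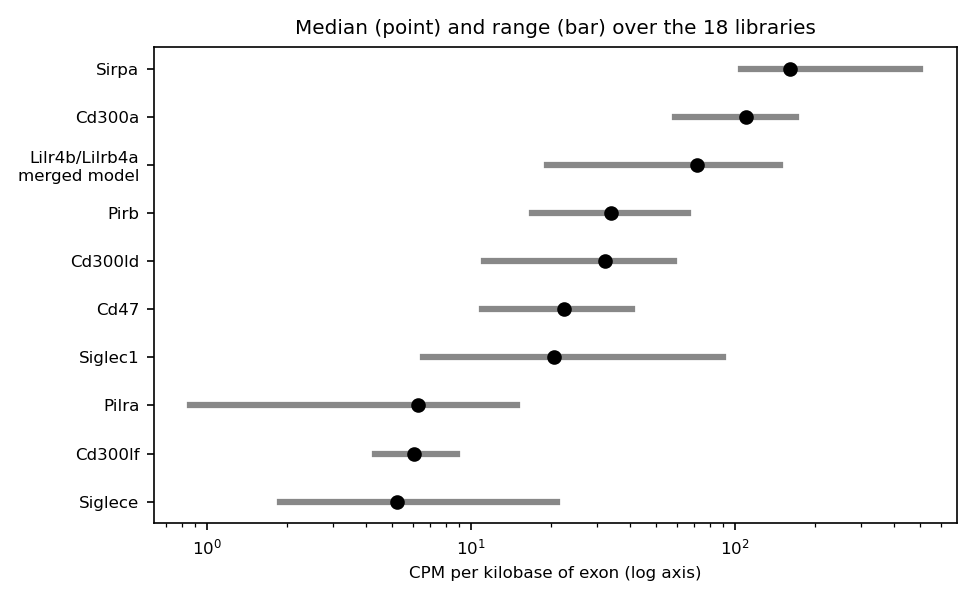
CPM per kilobase of exon (log axis) for the 9 genes and the merged Lilr4b/Lilrb4a model, ordered by median; points are medians and bars the range over 18 libraries. Sirpa and Cd300a stand highest, and Pilra, Cd300lf and Siglece lowest with overlapping ranges.

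The steadiness of the genes differed as well. Cd300lf varied least, from 22.2 to 45.6 CPM, a ratio of 2.05 between its highest and lowest library. Siglec1 varied from 47.1 to 640 CPM, a ratio of 13.6, Siglece from 3.49 to 39.0 CPM, a ratio of 11.2, and Pilra from 2.67 to 46.2 CPM, a ratio of 17.3. The full range of Siglec1 was spanned by 1 group of 3, the HDAC3 KO libraries with AC, at 423, 47.1 and 640 CPM, while its other groups had ratios of 1.19 to 9.48. Within groups the ratio was 1.78 to 4.86 for Siglece, 2.49 to 13.6 for Pilra and 1.18 to 1.72 for Cd300lf.

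**Figure D2:**
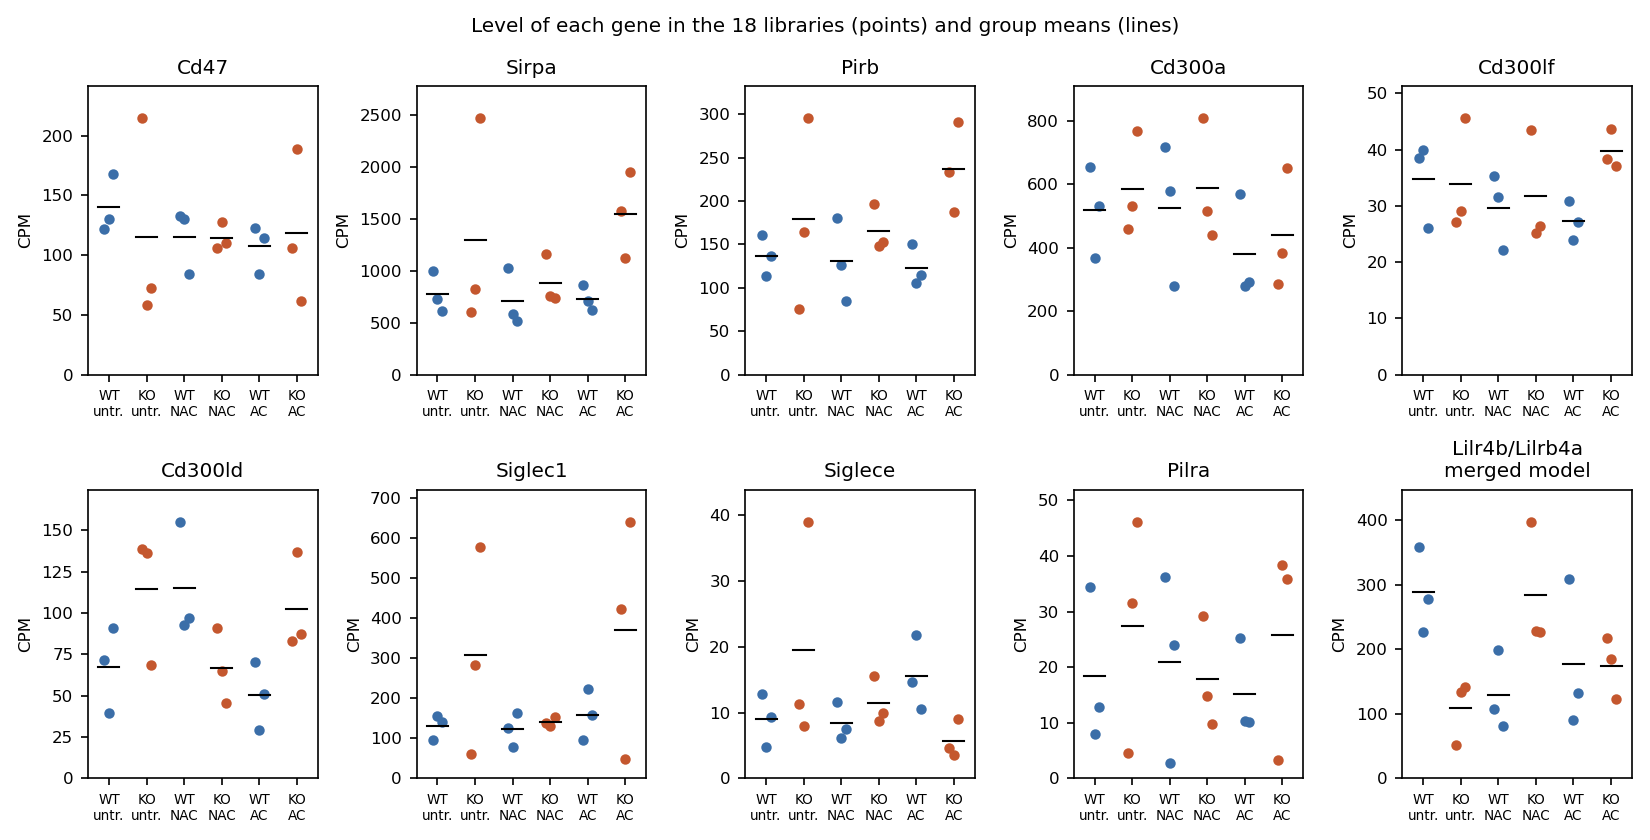
CPM in each of the 18 libraries (points; blue WT, orange labelled HDAC3 KO) for the 9 genes and the merged model, by treatment (untr., untreated); black lines are group means, n = 3. With AC the HDAC3 KO points of Sirpa, Pirb, Cd300lf and Cd300ld all lie above, and those of Siglece below, the WT points.

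The first comparison asked how the genotypes differ when macrophages have met apoptotic cells. Sirpa, Pirb, Cd300lf and Cd300ld were higher in all 3 HDAC3 KO libraries than in all 3 WT libraries, Siglece was lower in all 3, and the groups overlapped for Cd47. None of the 9 passed an adjusted p of 0.05 in edgeR's quasi-likelihood test, where 3.75% of the 12304 genes tested did. At an unadjusted p of 0.05 there were 4 of 9 (Sirpa, Pirb, Siglece, Cd300ld), against 24.3% of all genes. The Wald test of DESeq2 called 2, Sirpa and Siglece, where it called 10.5% of all genes, and limma-voom called 0 of the 9 and 3.28% of all genes. For 5 of the 9 genes the libraries of the genotypes were fully separate, against 28.3% of all genes tested.

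Mouse Cd47, the macrophages' own gene for the ligand, was at 123, 84.5 and 114 CPM in the WT libraries with AC. In the HDAC3 KO libraries it was at 106, 189 and 61.6 CPM, below and above the WT range. The log2 fold change (HDAC3 KO minus WT) was 0.12 ± 0.44 (SE; adjusted p = 0.882), and it turned negative, to -0.38, without HDAC3 KO replicate 2. The study includes Cd47 in an efferocytosis list it drew from these same samples.

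Sirpa, the receptor of CD47, was at 861, 714 and 622 CPM in WT and at 1576, 1127 and 1951 CPM in HDAC3 KO libraries with AC. The lowest HDAC3 KO library lay above the highest WT library. The difference was 2.03-fold, or 1.02 ± 0.40 on the log2 scale (adjusted p = 0.129, edgeR), and DESeq2 gave an adjusted p of 0.0482.

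Pirb followed Sirpa. It was at 150, 106 and 114 CPM in WT and at 233, 187 and 291 CPM in HDAC3 KO libraries with AC, again without overlap. The log2 fold change was 0.88 ± 0.39 (adjusted p = 0.169).

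The 3 listed CD300 receptors lie in 1 region of chromosome 11, and among these 3 Cd300ld had the largest difference. It was at 70.5, 29.5 and 51.2 CPM in WT and at 83.0, 137 and 87.3 CPM in HDAC3 KO libraries with AC, with a log2 fold change of 0.99 ± 0.43 (adjusted p = 0.159). Cd300lf was at 30.9, 23.9 and 27.2 CPM in WT and at 38.3, 43.7 and 37.1 CPM in HDAC3 KO, 0.49 ± 0.39 on the log2 scale (adjusted p = 0.446). Both genes had no overlap, but the log2 fold change of Cd300lf was -0.004 with a per-gene correction for GC and exon length, called the GC and length offset below. Cd300a was at 568, 279 and 293 CPM in WT and at 287, 383 and 651 CPM in HDAC3 KO, and the groups overlapped (0.15 ± 0.43, adjusted p = 0.856); its sign turned with that offset too.

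Neither Siglec passed the adjusted test by edgeR. Siglece was at 14.6, 21.8 and 10.5 CPM in WT and at 4.58, 3.49 and 8.99 CPM in HDAC3 KO libraries with AC. This was the lowest level of Siglece in any group, and no HDAC3 KO library reached a WT library. Of the 9 neutrophil markers tested in this comparison 1 was also lower in HDAC3 KO, Elane (-2.26 ± 0.57 on the log2 scale, adjusted p = 0.0424, edgeR). All 10 neutrophil markers had counts in both groups and together reached 375 to 963 CPM in WT and 443 to 765 CPM in HDAC3 KO libraries with AC; their part in the level of Siglece was not tested. The log2 fold change was -1.54 ± 0.48 (adjusted p = 0.0724, edgeR), the largest of the 9 in size. DESeq2 gave an adjusted p of 0.0369, the GC and length offset 0.0156, and the fit without HDAC3 KO replicate 3 0.0493 with -1.98. The latter fit called 341 genes in all, against 461 with all libraries. The other 5 fits with 1 library left out did not pass, with adjusted p up to 0.336, nor did limma-voom (0.0689) or the replicate block (0.120).

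Siglec1 was at 94.8, 223 and 157 CPM in WT and at 423, 47.1 and 640 CPM in HDAC3 KO libraries with AC. Both extremes of the comparison were HDAC3 KO libraries. The log2 fold change was 1.13 ± 0.71 (adjusted p = 0.348), and without HDAC3 KO replicate 2 it was 1.73 (adjusted p = 0.0183). That fit called 1693 genes in all, against 461 with all libraries. Pilra also had both extremes among the HDAC3 KO libraries, though replicate 1 was the low one and not replicate 2, at 25.2, 10.4 and 10.1 CPM in WT and 3.31, 38.4 and 35.8 CPM in HDAC3 KO (0.73 ± 0.74, adjusted p = 0.575).

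**Figure D3:**
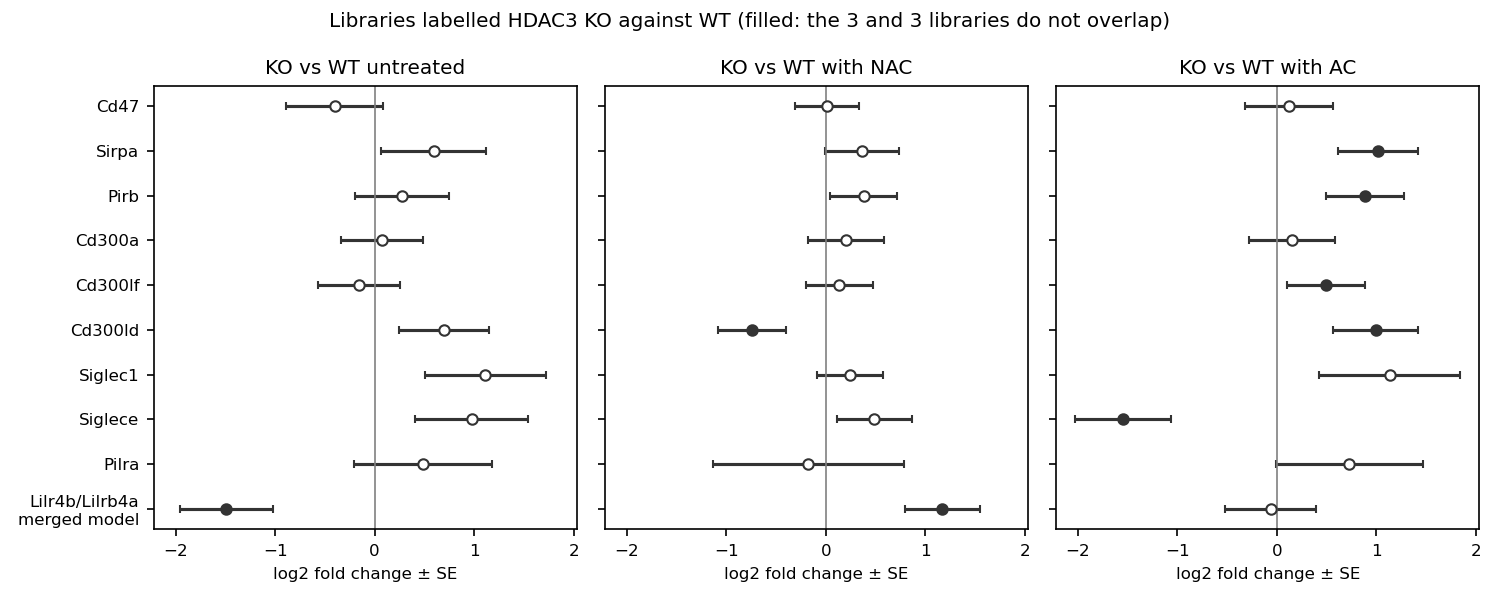
Log2 fold change (HDAC3 KO minus WT) ± SE from edgeR in each treatment; filled points mark genes whose 3 and 3 libraries do not overlap. With AC the points of Sirpa, Pirb, Cd300lf and Cd300ld are filled to the right of 0 and Siglece is filled at -1.54, whereas without treatment only the merged model is filled.

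Without treatment, the second comparison asked whether the genotypes already differ at rest. The HDAC3 KO libraries were far apart from one another, and for none of the 9 genes were the groups separate, against 40.9% of all genes tested. No member passed the adjusted test (11.6% of 12101 genes did), and none had an unadjusted p under 0.05 (37.2% of all genes did). DESeq2 and limma-voom also called 0 of the 9, where they called 31.8% and 18.8% of all genes. Of the 10 macrophage markers 2 were lower in these HDAC3 KO libraries by edgeR, Mrc1 (-1.51 ± 0.42, adjusted p = 0.0415) and Lyz2 (-1.94 ± 0.55, adjusted p = 0.0425). Lyz2 is also the gene whose promoter drives Cre in the HDAC3 KO, so for it genotype and cell content cannot be told apart. The 10 markers together stood at 10700 to 19100 CPM in WT and 5980 to 18300 CPM in HDAC3 KO, with none at 0, and their part in the results was not tested.

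Sirpa was at 994, 729 and 609 CPM in untreated WT and at 604, 824 and 2472 CPM in untreated HDAC3 KO libraries. HDAC3 KO replicate 3 held the highest level of the series, and the other two lay within the WT range or just below it. The log2 fold change of 0.59 ± 0.52 (adjusted p = 0.413) turned to -0.17 without that library and to -0.32 with the GC and length offset.

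Cd47 was at 122, 130 and 168 CPM in untreated WT and at 215, 58.0 and 72.8 CPM in untreated HDAC3 KO libraries. Siglec1 was at 96.6, 155 and 142 CPM in WT and at 60.9, 283 and 577 CPM in HDAC3 KO. In the HDAC3 KO libraries replicate 1, the one with the fewest counts of the series, was highest for Cd47 and lowest for Siglec1, while the other two stood on the far side of the WT range for both genes.

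The fold changes were -0.40 ± 0.48 for Cd47 (adjusted p = 0.554) and 1.11 ± 0.61 for Siglec1 (adjusted p = 0.193), on the log2 scale. Without HDAC3 KO replicate 1 they were -1.25 (adjusted p = 0.00640) and 1.54 (adjusted p = 0.000668). Siglece, at 0.97 ± 0.57 with all libraries (adjusted p = 0.222), also passed then with 1.22 (adjusted p = 0.0467), and 5887 of all genes were called. With the GC and length offset Cd47 was at 0.49 and Siglec1 at -0.02 on the log2 scale, so the direction of both genes turned.

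The third comparison took macrophages that had met NAC, K562 cells not made apoptotic. Cd300ld alone was separate, 1 of 9 genes against 27.0% of all genes tested, and none passed the adjusted test, where 0.864% of 11923 genes did. It was the 1 member with an unadjusted p under 0.05, against 24.2% of all genes, and DESeq2 and limma-voom called 0 of the 9, beside 4.07% and 0.319% of all genes. Cd300ld was at 155, 92.9 and 96.8 CPM in WT and at 90.6, 64.9 and 45.5 CPM in HDAC3 KO libraries with NAC. The direction was opposite to that with AC, with a log2 fold change of -0.74 ± 0.34 (adjusted p = 0.189). For Cd47 the levels were 132, 130 and 83.8 CPM in WT and 106, 127 and 110 CPM in HDAC3 KO, and for Sirpa 1024, 587 and 515 against 1164, 757 and 740 CPM.

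The merged Lilr4b/Lilrb4a model, whose counts cannot be split between the inhibitory Lilrb4a, Lilr4b and the overlapping Gm40645 and Gm49339, lay apart between the genotypes in opposite directions. In untreated libraries it was at 360, 228 and 278 CPM in WT and at 52.1, 134 and 142 CPM in HDAC3 KO. With NAC it was at 108, 198 and 81.5 CPM in WT and at 398, 229 and 227 CPM in HDAC3 KO. In neither treatment did the groups overlap, and HDAC3 KO was below WT in the first and above it in the second.

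With AC the model was at 309, 90.5 and 133 CPM in WT and 218, 185 and 122 CPM in HDAC3 KO libraries, and the groups overlapped. The log2 fold changes of HDAC3 KO against WT were -1.49 ± 0.47 untreated (adjusted p = 0.0531), 1.17 ± 0.37 with NAC (adjusted p = 0.0987) and -0.06 ± 0.46 with AC (adjusted p = 0.947). The first passed without HDAC3 KO replicate 1 (adjusted p = 0.00850), by DESeq2 (0.0188) and by limma-voom (0.0329), but with the GC and length offset it was -0.40 (adjusted p = 0.695). The second passed without WT replicate 2 (adjusted p = 0.00651) and with no filter on low counts (0.0216), and with the offset it was 0.78 (adjusted p = 0.217). The fits with these libraries left out called 5887 genes in all untreated and 3121 with NAC. Over the settings other than leaving out a library the adjusted p ran from 0.00905 to 0.721 untreated and from 0.0216 to 0.301 with NAC. The value with AC turned to 0.63 without WT replicate 1.

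Next, treatments were compared within each genotype. AC against NAC called 0 of the 9 genes in WT, where 0% of 11844 genes were called, and 0 in HDAC3 KO libraries, where 7.38% of 12244 were. Unadjusted p-values under 0.05 came to 2 of 9 in each genotype (4.16% of all genes in WT and 25.3% in HDAC3 KO), and DESeq2 and limma-voom called 0 of the 9 in both, beside 0% of all genes by either tool in WT and 10.9% and 5.87% in HDAC3 KO. In WT these were Siglece, 0.94 ± 0.41 higher with AC on the log2 scale (adjusted p = 0.898), and Cd300ld, at -1.15 ± 0.39 (adjusted p = 0.898).

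Cd300ld was the single member whose WT libraries with AC all lay below those with NAC, 1 of 9 against 10.4% of all genes whose groups were separate. In the HDAC3 KO libraries the 2 genes were Sirpa, 0.81 ± 0.39 (adjusted p = 0.191), and Siglece, -1.02 ± 0.44 (adjusted p = 0.143). Siglec1 in HDAC3 KO was at 139, 129 and 153 CPM with NAC, the tightest of its groups, against the wide range with AC given above (1.39 ± 0.72, adjusted p = 0.271). Without HDAC3 KO replicate 2 with AC its log2 fold change was 1.91 (adjusted p = 9.31e-05), with 3013 genes called in all.

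AC against no treatment gave 0 of 9 calls in each genotype, where 0% of 12199 genes in WT and 0% of 12136 in HDAC3 KO were called. At an unadjusted p of 0.05 there were 0 of 9 in WT and 1 of 9 in HDAC3 KO libraries, against 12.7% and 14.5% of all genes. In WT, DESeq2 and limma-voom called 0 of the 9, beside 0.0160% and 0% of all genes. In HDAC3 KO, limma-voom called 0 of the 9 and 0% of all genes, while DESeq2 gave an adjusted p to 4 of the 9 and called 0 of them, beside 1.08% of all genes with one. The 1 gene with an unadjusted p under 0.05 was Siglece, to which DESeq2 gave no adjusted p. It was at 11.3, 8.02 and 39.0 CPM without treatment and at 4.58, 3.49 and 8.99 CPM with AC in HDAC3 KO libraries, overlapping in a single library of each (-1.66 ± 0.62 on the log2 scale, adjusted p = 0.311). In WT libraries Siglece went from 12.8, 4.81 and 9.40 CPM to 14.6, 21.8 and 10.5 CPM (0.72 ± 0.40, adjusted p = 0.412).

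NAC against no treatment likewise called 0 of the 9 genes in each genotype, while 8.52% of 11912 genes in WT and 6.54% of 12143 in HDAC3 KO were called. None of the 9 had an unadjusted p under 0.05, against 33.2% and 30.4% of all genes. DESeq2 and limma-voom called 0 of the 9, beside 19.4% and 2.79% of all genes in WT and 18.5% and 13.3% in HDAC3 KO. In WT libraries Cd300ld stood at 71.8, 39.6 and 91.2 CPM untreated, below all 3 libraries with NAC (0.72 ± 0.38, adjusted p = 0.169). It was 1 of 9 genes whose groups were separate, against 29.7% of all genes. In HDAC3 KO libraries the log2 fold change of Siglec1 was -0.92 ± 0.61 (adjusted p = 0.316). Leaving out untreated HDAC3 KO replicate 1 brought Siglec1 (-1.43, adjusted p = 0.00551) and Cd47 (0.96, adjusted p = 0.0181) past the threshold. In that fit 4441 genes were called in all. With all libraries Cd47 was at 0.14 ± 0.49 (adjusted p = 0.858). Its direction turned under 5 of 9 settings, among them the GC and length offset.

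The merged Lilr4b/Lilrb4a model fell with NAC in WT, by 1.22 ± 0.41 on the log2 scale (adjusted p = 0.0459, edgeR). The adjusted p was 0.249 without untreated WT replicate 1, 0.150 without untreated WT replicate 2, 0.236 without WT NAC replicate 1 and 0.222 without WT NAC replicate 3, so the call rested on each of these libraries. The log2 fold change in these fits was -0.99 to -1.31, and 21 to 46 of all genes were called in place of 1015. It was also lost with DESeq2 size factors (0.0639), library totals (0.0677), limma-voom (0.0515), no filter (0.0789) and all 18 libraries in one fit (0.159), and with the GC and length offset the value was -0.68 (adjusted p = 0.249). The DESeq2 Wald test (0.0309) and the replicate block (0.0201) kept it. In HDAC3 KO libraries the model was higher with NAC by 1.58 ± 0.44 (adjusted p = 0.0566), and without untreated HDAC3 KO replicate 1 it passed with 1.20 (adjusted p = 0.0151). It also passed with library totals (0.0138), DESeq2 (0.0230), limma-voom (0.0370) and no filter (0.00935). With the offset it was 0.62 (adjusted p = 0.496).

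Whether the genotypes respond differently was tested as an interaction, the treatment difference in HDAC3 KO minus that in WT. For AC against NAC, 0 of the 9 genes passed, where 0.0765% of 13076 genes did. Siglece and Cd300ld had an unadjusted p under 0.05 (2 of 9, against 20.0% of all genes), DESeq2 called the same 2, where it called 5.82% of all genes, and limma-voom called 0 of the 9 and 0.0535% of all genes. They moved in opposite senses. From NAC to AC, the mean of Siglece went from 8.43 ± 2.87 to 15.6 ± 5.69 CPM (SD, n = 3) in WT and from 11.4 ± 3.63 to 5.69 ± 2.91 CPM in HDAC3 KO libraries.

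The mean of Cd300ld went from 115 ± 34.9 to 50.4 ± 20.5 CPM in WT and from 67.0 ± 22.7 to 103 ± 30.1 CPM in HDAC3 KO libraries (SD, n = 3). The interaction was -1.91 ± 0.61 for Siglece (adjusted p = 0.104, edgeR) and 1.80 ± 0.55 for Cd300ld (adjusted p = 0.0951, edgeR), on the log2 scale. With the GC and length offset both passed, Siglece at -2.48 (adjusted p = 0.0237) and Cd300ld at 2.16 (adjusted p = 0.0291), where 2.08% of all genes did.

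**Figure D4:**
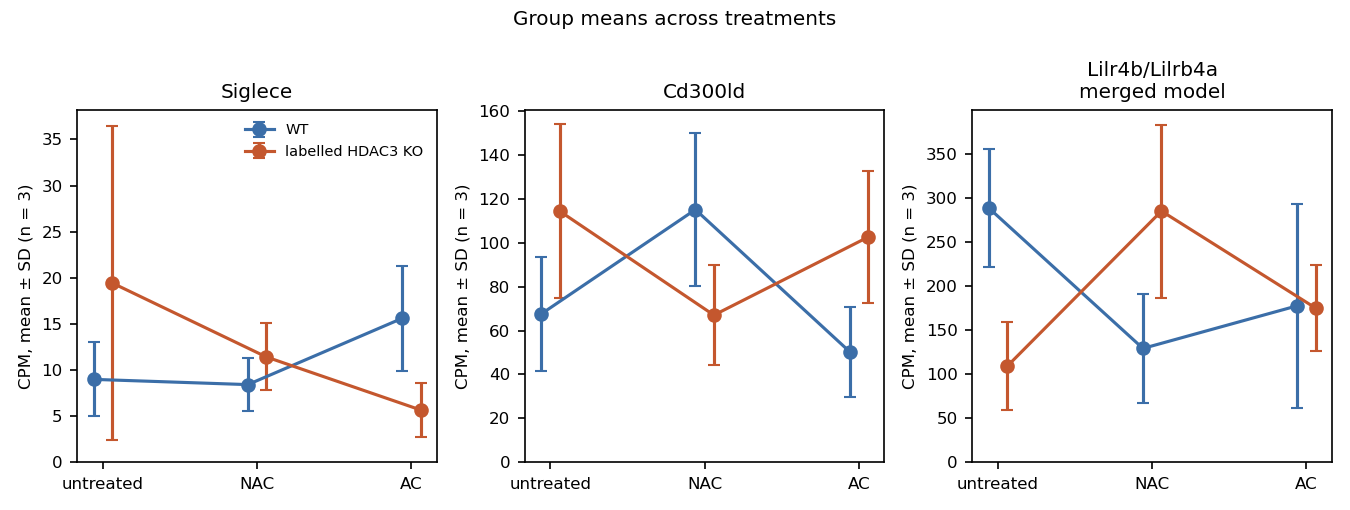
Mean CPM ± SD (n = 3) of Siglece, Cd300ld and the merged Lilr4b/Lilrb4a model across treatments in WT (blue) and libraries labelled HDAC3 KO (orange). The lines of Siglece cross between NAC and AC, and those of Cd300ld and the merged model cross in both steps, the latter ending with AC at 178 and 175 CPM.

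For AC against no treatment, 0 of 9 genes passed the interaction test (0% of 13225 genes). Siglece was again the 1 gene with an unadjusted p under 0.05 (24.1% of all genes had one), at -2.59 ± 0.80 on the log2 scale (adjusted p = 0.115). DESeq2 called it with 0.0264, beside 12.5% of all genes, and limma-voom called 0 genes, 0% of all. Without HDAC3 KO replicate 3 with AC it passed with -3.08 (adjusted p = 0.0429), in a fit that called 1100 of all genes.

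For NAC against no treatment, 34.8% of 13005 genes passed, and 0 of the 9 did. Cd300ld was the 1 member with an unadjusted p under 0.05 (47.4% of all genes had one), at -1.20 ± 0.56 (adjusted p = 0.0921). DESeq2 called it with an adjusted p of 0.0261, where it called 37.0% of all genes, and limma-voom called 0 of the 9 and 39.2% of all genes. Without untreated HDAC3 KO replicate 1 Cd300ld passed with -1.31 (adjusted p = 0.0412). Cd47 (1.17, adjusted p = 0.0373) and Siglec1 (-1.39, adjusted p = 0.0242) passed in the same fit, which called 6297 genes in all. Without replicate 3 Cd300ld passed with -1.72 (adjusted p = 0.0203), where 4603 genes were called in all. The fit of all libraries called 4530. With all libraries Cd47 was at 0.61 ± 0.58 (adjusted p = 0.4115) and Siglec1 at -0.64 ± 0.74 (adjusted p = 0.5077). Both of these genes turned direction with the GC and length offset. The merged Lilr4b/Lilrb4a model passed with 2.91 ± 0.61 (adjusted p = 0.00206, edgeR). With the GC and length offset it was 1.46 (adjusted p = 0.0845).

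All of these comparisons share libraries, so the values of one are not independent of the next. As a set, the 9 genes had a median log2 fold change of 0.73 with AC (HDAC3 KO minus WT), 0.20 with NAC and 0.48 untreated, beside -0.01, -0.003 and 0.06 over all genes tested. With AC 8 of the 9 were above 0 by edgeR, 6 with the GC and length offset and 5 with offset and replicate block. The other scalings moved the median of all genes by more than 0.1 in some comparisons, to -0.42 with library totals alone and 0.19 with DESeq2 size factors for the untreated genotypes.

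The partners of these receptors were read from 59 other genes in 5 groups, of which 55 were counted. The groups were chosen with earlier results of these data known. With AC, 2 of 48 tested genes rose in HDAC3 KO against WT libraries, 1 fell and 45 did not pass (edgeR), 6.25% called beside the 3.75% of all genes. DESeq2 called 8 of the 48 (10.5% of all genes), limma-voom 2 (3.28%) and the GC and length offset 7 (10.5%). The median log2 fold change of the 48 by edgeR was 0.48, beside -0.01 over all genes tested. H2-K1, an MHC class I heavy chain of the kind PIR-B binds, rose by 1.56 ± 0.43 on the log2 scale (adjusted p = 0.0489), and Cd300c2, an activating relative of the CD300 receptors, by 1.46 ± 0.40 (adjusted p = 0.0474). Cd24a, a sialylated surface ligand of Siglecs, fell by 1.83 ± 0.48 (adjusted p = 0.0445). With 1 library left out, Cd24a passed in 3 of 6 fits, H2-K1 in 2 and Cd300c2 in 2. In these fits the log2 fold changes were -2.11 to -1.28 for Cd24a, 1.28 to 1.79 for H2-K1 and 1.27 to 1.66 for Cd300c2.

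The group of 12 phosphatases, kinases and adaptors covers ITIM signalling and its activating counterpart, ITAM signalling. With AC, edgeR called 0 of these 12, DESeq2 1 and limma-voom 0, and 5 had an unadjusted p under 0.05. Over all genes these shares were 3.75%, 10.5%, 3.28% and 24.3%. The GC and length offset called 2 of the 12, Csk at -1.04 (adjusted p = 0.0328), a kinase that restrains Src-family kinases, and Pag1 at -1.59 (adjusted p = 0.0353), an adaptor that recruits Csk. By edgeR without the offset they were at -0.87 (adjusted p = 0.215) and -1.003 (adjusted p = 0.192), and neither passed with both offset and replicate block. Ptpn11, which encodes SHP-2, came nearest by edgeR, with 28.7 ± 4.06 CPM in WT and 75.7 ± 34.0 CPM in HDAC3 KO libraries (SD, n = 3), or 1.34 ± 0.42 on the log2 scale (SE; edgeR's adjusted p = 0.0720). Inpp5d, which encodes SHIP-1, was at 206 ± 64.8 and 525 ± 324 CPM (1.27 ± 0.48, adjusted p = 0.116). Both passed without HDAC3 KO replicate 2, in a fit that called 1693 of all genes, against 461 with all libraries. With the offset they were at 0.71 (adjusted p = 0.125) and 0.67 (adjusted p = 0.202). Ptpn6, which encodes SHP-1, was at 305 ± 72.2 and 374 ± 148 CPM (0.22 ± 0.41, adjusted p = 0.765).

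The Src-family kinase Lyn, which phosphorylates ITIMs, had a log2 fold change of 0.46 ± 0.41 with AC (adjusted p = 0.514). Qpctl, the enzyme that modifies the end of CD47 for binding by SIRPα, was at 0.26 ± 0.43 (adjusted p = 0.736). Thbs1, a secreted ligand of CD47, was at 1.11 ± 0.62 (adjusted p = 0.291). None of these 3 genes was called when a single library was left out.

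In untreated libraries 1 of 47 tested partner genes rose in HDAC3 KO against WT and 5 fell, a share of 12.8% called, near the 11.6% of all genes. Src, a kinase of the family named above, rose by 2.19 ± 0.46 on the log2 scale (adjusted p = 0.0218). Cd24a (-2.20, adjusted p = 0.0250), Skap2 (-1.85, adjusted p = 0.0232), an adaptor of the SIRPα pathway, and the inhibitory receptors Cd200r1 (-1.85, adjusted p = 0.0401), Milr1 (-1.69, adjusted p = 0.0322) and Clec4a2 (-1.40, adjusted p = 0.0461) fell. These were tested by edgeR, and with the GC and length offset 0 of the 47 passed, beside 0% of all genes. The log2 fold changes then were -1.92 for Cd24a, 1.19 for Src, -1.08 for Milr1, -0.72 for Cd200r1 and -0.58 for Skap2. Clec4a2 turned to 0.12 with the offset (adjusted p = 0.925). DESeq2 called 13 of the 42 to which it gave an adjusted p (31.8% of all genes), and limma-voom called 7 of the 47 (18.8%). With 1 library left out, Src passed in 2 of 6 fits and Skap2, Cd24a, Milr1, Cd200r1 and Clec4a2 in 1 each. In these fits the log2 fold changes were 1.85 to 2.61 for Src, -2.13 to -1.72 for Skap2 and -2.63 to -1.94 for Cd24a. They were -2.09 to -1.45 for Milr1, -2.25 to -1.42 for Cd200r1 and -1.68 to -1.26 for Clec4a2. With NAC 0 of 47 passed by edgeR (0.864% of all genes did) or limma-voom (0.319%), and DESeq2 called 0 of the 45 to which it gave an adjusted p (4.07% of all genes). An unadjusted p under 0.05 was found for 8, against 24.2% of all genes.

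From NAC to AC in HDAC3 KO libraries 2 of 48 partner genes rose and 3 fell, 10.4% called beside 7.38% of all genes. Inpp5d rose by 1.49 ± 0.43 (adjusted p = 0.0320) and Siglecf, an inhibitory Siglec with a median of only 1.21 CPM over the series, by 2.82 ± 0.61 (adjusted p = 0.00971), by edgeR. Cd24a fell by 2.20 (adjusted p = 0.00250), Milr1 by 1.40 (adjusted p = 0.0256) and Skap2 by 1.29 (adjusted p = 0.0379). With 1 library left out Cd24a passed in 5 of 6 fits, Siglecf in 4, Milr1 in 2, and Inpp5d and Skap2 in 1 each. In these fits the log2 fold changes were -2.49 to -1.96 for Cd24a, 2.30 to 3.72 for Siglecf and -1.62 to -1.22 for Milr1. They were 0.996 to 1.87 for Inpp5d and -1.43 to -1.03 for Skap2. With the GC and length offset Inpp5d (0.81, adjusted p = 0.1475) and Skap2 (-0.47, adjusted p = 0.2875) did not pass, and Cd24a, Milr1 and Siglecf did. Of the 48 the offset called 7 (5.45% of all genes), DESeq2 8 (10.9%) and limma-voom 4 (5.87%). In WT 0 of 44 passed by edgeR, DESeq2 or limma-voom, as did 0% of all genes, and 4 had an unadjusted p under 0.05 (4.16% of all genes).

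From no treatment to NAC 1 of 46 partner genes rose and 1 fell in WT, 4.35% called beside 8.52% of all genes. These were Src by 1.47 ± 0.42 (adjusted p = 0.0278) and Pag1, the Csk adaptor named above, by -1.37 ± 0.44 (adjusted p = 0.0427). In HDAC3 KO libraries 2 of 47 rose and 1 fell, 6.38% beside 6.54% of all genes: Cd24a by 2.27 ± 0.47 (adjusted p = 0.0354), Skap2 by 1.49 ± 0.32 (adjusted p = 0.0368) and Src by -1.54 ± 0.37 (adjusted p = 0.0437). DESeq2 called 2 of the 36 with an adjusted p in WT (19.4% of all genes) and 7 of 43 in HDAC3 KO (18.5%), and limma-voom 0 of 46 (2.79%) and 5 of 47 (13.3%). With the GC and length offset 0 passed in either genotype. With 1 library left out the 2 calls in WT held in 2 of 6 fits each. The 3 in HDAC3 KO held in 1 of 6 each. Over the fits with 1 library left out the log2 fold changes in WT were 0.952 to 1.89 for Src and -1.72 to -1.003 for Pag1. In HDAC3 KO they were 1.96 to 2.62 for Cd24a, 1.31 to 1.68 for Skap2 and -1.79 to -1.32 for Src. AC against no treatment called 0 of 46 in WT and 0 of 48 in HDAC3 KO by edgeR or limma-voom, as 0% of all genes. DESeq2 called 0 of 46 in WT and 0 of the 13 to which it gave an adjusted p in HDAC3 KO. An unadjusted p under 0.05 was found for 3 and 4 genes, against 12.7% and 14.5% of all genes.

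The interaction of genotype with NAC against no treatment called 13 of 48 partner genes, 10 upwards and 3 downwards, or 27.1% beside the 34.8% of all genes given above. DESeq2 called 18 of the 48 (37.0% of all genes) and limma-voom 14 (39.2%). With the lowest p were Cd24a at 3.26 ± 0.67 (adjusted p = 0.00180), Skap2 at 2.65 ± 0.55 (adjusted p = 0.00189), Src at -2.90 ± 0.64 (adjusted p = 0.00259), Lyn at 2.73 ± 0.62 (adjusted p = 0.00340) and Cd200r1 at 2.67 ± 0.63 (adjusted p = 0.00419), on the log2 scale by edgeR. These 5 passed in all 12 fits with 1 library left out. With the GC and length offset 2 of the 48 passed, Cd24a and Lyn, beside 12.2% of all genes. The others then were at 0.87 for Skap2 (adjusted p = 0.242), -1.30 for Src (adjusted p = 0.0897) and 1.25 for Cd200r1 (adjusted p = 0.0827). The interactions with AC called 0 of 48 against NAC and 0 of 48 against no treatment, where DESeq2 called 5 of 48 and 1 of 43 (5.82% and 12.5% of all genes), the offset 3 and 0 (2.08% and 0%), limma-voom 0 and 0, and 13 and 8 genes had an unadjusted p under 0.05 (20.0% and 24.1% of all genes).

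Over the 18 libraries Sirpa and Pirb varied together (Pearson r = 0.92 of log2 CPM), and Cd300lf followed both (r = 0.76 and 0.70). Cd47 and Siglec1 varied in opposite senses (r = -0.82). Siglece and Cd300ld followed no other member beyond r = 0.42 in either direction. These coefficients describe points that share group, library depth and base composition, and they carry no test.

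The GC trend of the libraries ran beside some of these levels. Its r was -0.57 with Cd47, whose exons have 44.6% GC, and 0.59 with Siglec1, whose exons have 56.4% GC. For the merged model with 44.4% GC it was -0.75. For Sirpa it was 0.33, for Pirb 0.20, for Pilra 0.20, for Siglece 0.36, for Cd300ld 0.24, for Cd300lf -0.13 and for Cd300a 0.004. How far the trend accounts for the levels was not tested beyond the offset fits given beside the results.

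**Figure D5:**
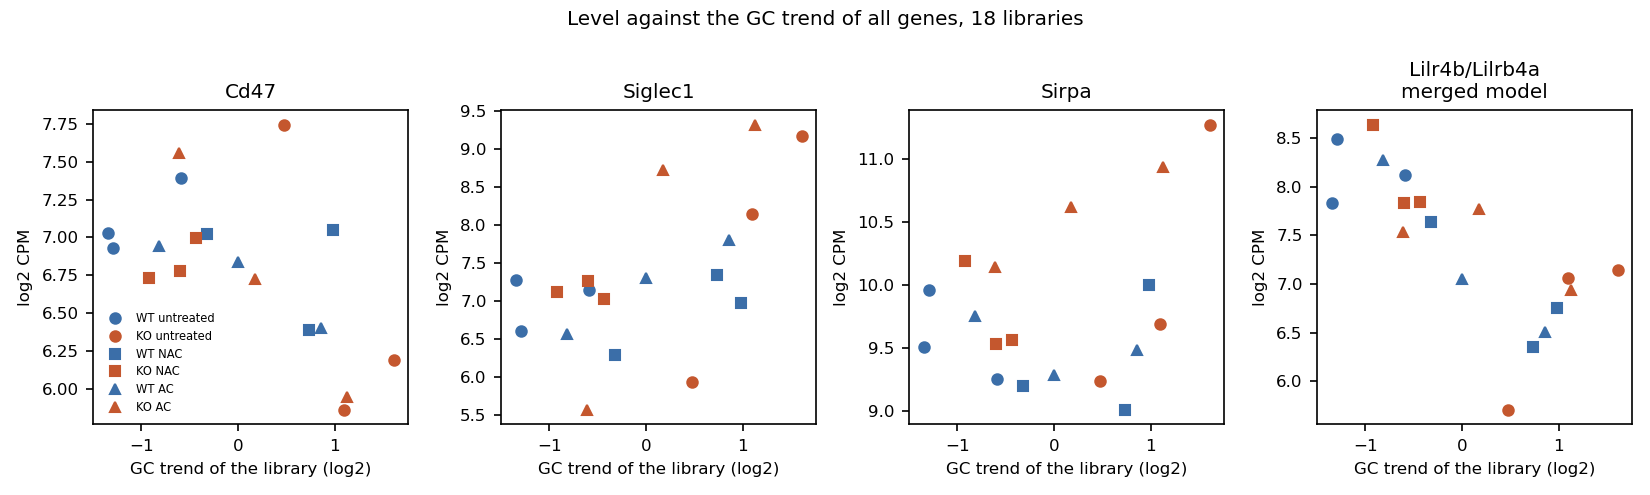
Log2 CPM of Cd47, Siglec1, Sirpa and the merged Lilr4b/Lilrb4a model against the GC trend of each library (log2), 18 libraries by genotype label (blue WT, orange HDAC3 KO) and treatment (circles untreated, squares NAC, triangles AC). Cd47 and the merged model lie lower, and Siglec1 higher, in libraries with a higher trend.

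The genes most like Cd47 over the 18 libraries, among those expressed, were Ubxn4 (r = 0.94), Jkamp (r = 0.92) and Zranb1 (r = 0.91). Those most like Sirpa were Rab8a (r = 0.96), Slc39a1 (r = 0.96) and Otud5 (r = 0.96). Pirb, at r = 0.92, was thus close to Sirpa but not among its nearest 3.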

How the data were processed

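The deposited values are read counts per gene in 18 libraries, made by the authors with Trimmomatic 0.36, STAR 2.5.2b and featureCounts of Subread 1.5.2 on GRCm38 per the labels (submitters' processing notes). The strand setting is not given in the sources used here. For each comparison only the libraries of its groups entered the model (edgeR 4.0.16, R 4.3.3): filterByExpr (minimum count 10, total 15), TMM scaling, robust glmQLFit and glmQLFTest, with Benjamini-Hochberg adjustment over all genes tested and a threshold of 0.05. SE is the absolute log2 fold change divided by the root of F. Correlations used log2 CPM with prior count 2. Alternatives were DESeq2 1.42.0 (Wald test, size factors), limma-voom (limma 3.58.1), library totals, no filter, all 18 libraries, a replicate block, a GC and length offset (mgcv 1.9.3), and each library left out. All 9 genes passed the filter in all 12 comparisons. The genes described and the partner lists were chosen with earlier results of these data known. All 10 listed genes are named. Of the partners, Ptpn6, Ptpn11, Inpp5d, Lyn, Thbs1 and Qpctl are named with AC (1 further gene of that rule is not reported here), and others only where adjusted p was under 0.05, up to 5 per comparison by lowest p; Clec4a2, and Csk and Pag1 with AC, were added after their values were seen. Replicate pairs differed by more than counting error (chi-squared per degree of freedom of at least 35.8). The scripts were tested on simulated data.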

Additional observations from a re-analysis of the deposited data

Results flagged for a closer look

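The merged Lilr4b/Lilrb4a model is given here because the genotypes differed in their response to NAC against no treatment by a test of the difference itself: the interaction was 2.91 on the log2 scale (adjusted p = 0.00206, edgeR). The same test called 34.8% of all 13005 genes, and the GC trend of the libraries (r = -0.75 with this model over 18 libraries) reverses between the same groups. No other listed gene met this or another criterion. With the GC and length offset the interaction of the merged model was 1.46 and did not pass (adjusted p = 0.0845, edgeR). With 3 libraries per group, single libraries were not tested as outliers.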

How the results depend on the processing

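None of the 9 genes was called by edgeR in any of the 12 comparisons, and the alternatives changed that in part. With AC, HDAC3 KO against WT, DESeq2 called 2 (Sirpa, Siglece; 1365 of all genes), and the GC and length offset called 1 (Siglece; 1290 of all genes, and 630 with the replicate block, against 461 by edgeR). From NAC to AC in HDAC3 KO, no filter called 1 (Siglec1; 1007 of all genes) and the offset with the replicate block 1 (Siglece; 1032), against 904 by edgeR. For the interaction of genotype with AC against NAC, DESeq2 (741 of all genes) and the offset (272, and 152 with the block) called 2 (Siglece, Cd300ld), and no filter called 1 (Cd300ld; 537), against 10 by edgeR. For AC against no treatment DESeq2 called 1 (Siglece; 1249 of all genes), and for NAC against no treatment DESeq2 (5559), its size factors (5010), all 18 libraries (4733) and the offset (1593, and 1274 with the block) each called 1 (Cd300ld), against 4530 by edgeR. With 1 library left out, 0 to 3 of the 9 were called in untreated genotypes and in the interaction with NAC against no treatment, 0 to 2 for NAC against no treatment in HDAC3 KO, 0 to 1 for AC between genotypes, for AC against NAC in HDAC3 KO and for the interaction with AC against no treatment, and 0 in the others. Over all genes the calls then ran from 0 to 6297. The fits that called any of the 9 called 5887 of all genes untreated, and 1693 or 341 with AC between genotypes. In HDAC3 KO they called 4441 for NAC against no treatment and 3013 for AC against NAC. For the interactions they called 6297 or 4603 with NAC against no treatment, and 1100 with AC against no treatment.

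Of the 108 fold changes of the 9 genes over the 12 comparisons, 46 turned direction under at least 1 setting and 45 with 1 library left out, 55 in all, and 53 under none; the largest that turned was 1.11 in size. Of the 12 of the merged model 2 turned. Among the fold changes given in the text these turned, on the log2 scale. With AC, HDAC3 KO against WT, Cd47 was at -0.0343 by limma-voom, -0.0455 with the replicate block and -0.0021 with offset and block. Cd300a was at -0.226 and Cd300lf at -0.0042 with the offset, and at -0.268 and -0.0309 with offset and block. Qpctl was at -0.127 and -0.101. The merged Lilr4b/Lilrb4a model was at 0.0848 by limma-voom, 0.0769 without a filter, 0.0762 with the block, 0.284 with the offset and 0.334 with both. In untreated libraries the offset gave 0.485 for Cd47, -0.317 for Sirpa and -0.0212 for Siglec1, and 0.306, -0.377 and -0.346 with the block, and Clec4a2 was at 0.1215 with the offset alone. Siglec1 from no treatment to NAC in HDAC3 KO was at 0.256 with offset and block. With 1 library left out, the ranges of these fold changes that crossed 0 were -0.380 to 0.464 for Cd47, -0.189 to 0.574 for Cd300a, -0.362 to 0.629 for the merged model and -0.0964 to 0.472 for Ptpn6 with AC, and -0.167 to 0.897 for Sirpa untreated. Cd47 from no treatment to NAC in HDAC3 KO also turned, under 5 of 9 settings and in 2 of 6 fits with 1 library left out. In the interaction with NAC against no treatment Cd47 turned under 2 of 9 settings and Siglec1 under 3 of 9. The offset was among these settings for both genes. The causes were not tested.

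The labels do not say whether equal replicate numbers mark the same animal. Correlations of the deviations of same-numbered libraries ran from -0.33 to 0.46, and in no comparison were all pairs above 0.1, so the libraries were treated as sharing only a number. With the replicate block alone 0 of the 9 were called in every comparison. Between genotypes, calls over all genes went from 1404 to 1336 untreated, 103 to 217 with NAC and 461 to 373 with AC. For AC against NAC in HDAC3 KO they went from 904 to 1400, and for AC against no treatment in WT from 0 to 53. For NAC against no treatment they went from 1015 to 1784 in WT and 794 to 0 in HDAC3 KO. The interactions went from 10 to 152 (AC against NAC) and 4530 to 4280 (NAC against no treatment). The other comparisons had 0 calls either way. Depth limits Siglece and Pilra most, with as few as 45 and 18 counts in a library.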
